A study of Homo sapiens with 8 samples.

Results

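*IGF2BP1*, *IGF2BP2* and *IGF2BP3* encode the IGF2 mRNA-binding proteins, and their enhancers were examined in 4 medulloblastoma (MB) cell lines from H3K27Ac ChIP-seq. H3K27Ac is a histone mark of active enhancers and promoters. The 3 genes were taken by name from the 19962 protein-coding genes that GENCODE 44 places on chromosomes 1 to 22 and X. An enhancer region was counted for a gene when it overlapped the gene body or lay within 50 kb of the gene start. By this rule the 3 genes had 42 regions, and MB002 held 10 of its 26072 regions, D425 11 of 26317, HD-MB03 6 of 15286 and UW228 15 of 20875.

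MB002, D425 and HD-MB03 are established lines of Group 3 MB (G3-MB), and UW228 is an established line that the labels give as SHH subtype MB. MB002 and HD-MB03 were grown in Tumor Stem Media, whereas D425 and UW228 were grown in DMEM with fetal bovine serum. The labels name no treatment, and each line gave 1 H3K27Ac library and 1 input library. Each line comes from 1 tumor, so the 3 G3-MB lines are the only spread that could be measured. The header of the UW228 values carries a later date and another run path than those of the G3-MB lines. The methods describe the same alignment and peak threshold for all ChIP-seq sets. For harvest and fixation before ChIP sequencing they name MB002, D425 and HD-MB03, and not UW228. Run and subtype cannot be told apart in any UW228 rank or SE call. As a check of the labels, *OTX2*, which encodes a homeobox transcription factor characteristic of G3-MB, had super-enhancers (SEs) of ranks 3, 3 and 5 in MB002, D425 and HD-MB03, and no region in UW228.

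The IGF2BP proteins bind mRNA through RRM and KH domains, read N6-methyladenosine (m6A) on their targets, and affect the stability, localization and translation of those targets. *IGF2BP1* and *IGF2BP3* are oncofetal genes, active in the embryo, silent in most adult tissues and active again in many tumors, whereas *IGF2BP2* stays active in many adult tissues. In the embryo they work beside LIN28 and HMGA2 in a program that the let-7 microRNAs hold down.

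H3K27Ac signal was the deposited H3K27Ac value of a region minus its input value, both in reads per base pair, scaled to the mapped reads of the library, times the length of the region. Regions are ranked in each line from 1, the highest signal. SEs are the regions of a line above the bend of its ranked signal curve, and the other regions are typical enhancers (TEs). The lines had 363 (MB002), 431 (D425), 302 (HD-MB03) and 753 (UW228) SEs. The share of a gene was its summed signal as a part of the summed signal of all regions of that line, in ppm. Relative input density was the input signal per base pair over the median of the line, and it shows where a region had more input DNA than usual. It ranged from 0.574 to 2.83 over the 42 regions. Signal of a line is summed over its cells, so a mark in fewer cells and a weaker mark per cell cannot be told apart.

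*IGF2BP3* lies on chromosome 7 from 23310209 to 23470491 on the minus strand, and *IGF2BP2* on chromosome 3 from 185643130 to 185825042, also on the minus strand (GRCh38). *IGF2BP1* lies on chromosome 17 from 48997385 to 49056145 on the plus strand. The 250 bases before the gene start are shown for *IGF2BP3*, whose start was covered by a SE in all 3 G3-MB lines, and for *IGF2BP2*, whose start was covered in HD-MB03. They are RefSeq promoters of GRCh38.p14 from the minus strand, with the E-box CACGTG in capitals. Of the 3 genes 2 had an entry, and *IGF2BP1* had none.
IGF2BP3 chr7:23470492-23470741: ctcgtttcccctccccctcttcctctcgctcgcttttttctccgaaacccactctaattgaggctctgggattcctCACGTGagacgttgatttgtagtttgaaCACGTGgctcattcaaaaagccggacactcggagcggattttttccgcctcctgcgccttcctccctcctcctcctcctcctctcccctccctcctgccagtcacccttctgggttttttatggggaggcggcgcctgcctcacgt
IGF2BP2 chr3:185825043-185825292: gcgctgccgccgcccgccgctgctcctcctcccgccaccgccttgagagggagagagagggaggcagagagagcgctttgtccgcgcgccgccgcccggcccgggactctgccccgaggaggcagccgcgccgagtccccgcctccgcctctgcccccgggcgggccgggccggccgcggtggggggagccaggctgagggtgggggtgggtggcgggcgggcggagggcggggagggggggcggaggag
The *IGF2BP3* promoter held CACGTG at 174 and at 146 bases before the start. Of 34961 promoters of this length, 6.35% held CACGTG and 0.532% held it at least at 2 places. Neither promoter held TAATCC, the core of the motif of OTX2 and CRX, on either strand, and 5.60% of all promoters did. G+C made up 56.8% of the *IGF2BP3* promoter and 81.6% of the *IGF2BP2* promoter, around a median of 58.4%. There were 15 CpG in the first and 32 in the second, against a median of 11. A second *IGF2BP2* entry, from a transcript that starts inside the gene at 185821142, had 32.8% G+C and 2 CpG, below the medians. Other transcript starts of the gene were not read.

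A further 60 bases show the TAATCC match (in capitals, GRCh38, minus strand) that was nearest to the *IGF2BP3* start outside exons and outside the letters GTAATCCCA, which Alu repeats carry. It lies in intron 2, 2139 bp into the gene, inside the *IGF2BP3* SEs of all 3 G3-MB lines and inside a TE of UW228.
IGF2BP3 intron 2 chr7:23468325-23468384: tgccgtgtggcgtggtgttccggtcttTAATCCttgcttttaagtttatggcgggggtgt
TAATCC matches on both strands were not denser in every SE of these genes. The *IGF2BP3* SE held 1.38 per kb for MB002, 0.864 for D425 and 1.04 for HD-MB03, and regions of similar length (within 20%) had medians of 0.772, 0.830 and 0.720 per kb. The *IGF2BP1* SE held 1.38 per kb in MB002 and 0.745 in D425, against medians of 0.762 and 0.888. Outside the letters GTAATCCCA, the *IGF2BP1* values were 0.496 and 0.279 per kb, near or below the medians of 0.499 and 0.467. The *IGF2BP3* values outside those letters were 0.702, 0.409 and 0.505 per kb, with medians of 0.490, 0.478 and 0.387. The excess in the *IGF2BP1* SE of MB002 was therefore made of matches in the repeat letters, while in the *IGF2BP3* SEs of MB002 and HD-MB03 the density stayed above the median without them. CACGTG was less dense in the *IGF2BP3* SEs than in the median region of similar length, at 0.0602, 0.0909 and 0.0673 per kb (MB002, D425 and HD-MB03) against 0.111, 0.100 and 0.139. In the *IGF2BP1* SEs it was denser, at 0.192 per kb in MB002 and 0.248 in D425 against 0.110 and 0.106. A match is a string of letters, and binding was not measured here.

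Of the 12 pairs of a gene and a line, 5 had a SE. These were *IGF2BP3* in all 3 G3-MB lines and *IGF2BP1* in MB002 and D425. *IGF2BP2* had TEs in every line. UW228 had no SE at any of the 3 genes. Among the 19962 coding genes, a SE by the same rule was found at 3.36% (MB002), 4.35% (D425), 3.12% (HD-MB03) and 5.00% (UW228). A SE in all 3 G3-MB lines and none in UW228, the pattern of *IGF2BP3*, was found for 0.291% (58 genes). The study had already listed *IGF2BP3* among genes with SEs in at least 3 G3-MB lines, from data that include these lines. Its place in this small set is therefore no separate support. A SE in at least 2 G3-MB lines and none in UW228, which *IGF2BP1* and *IGF2BP3* both had, was found for 1.55% (309 genes). The map of the regions along each gene shows where they lay.

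**Figure D1:**
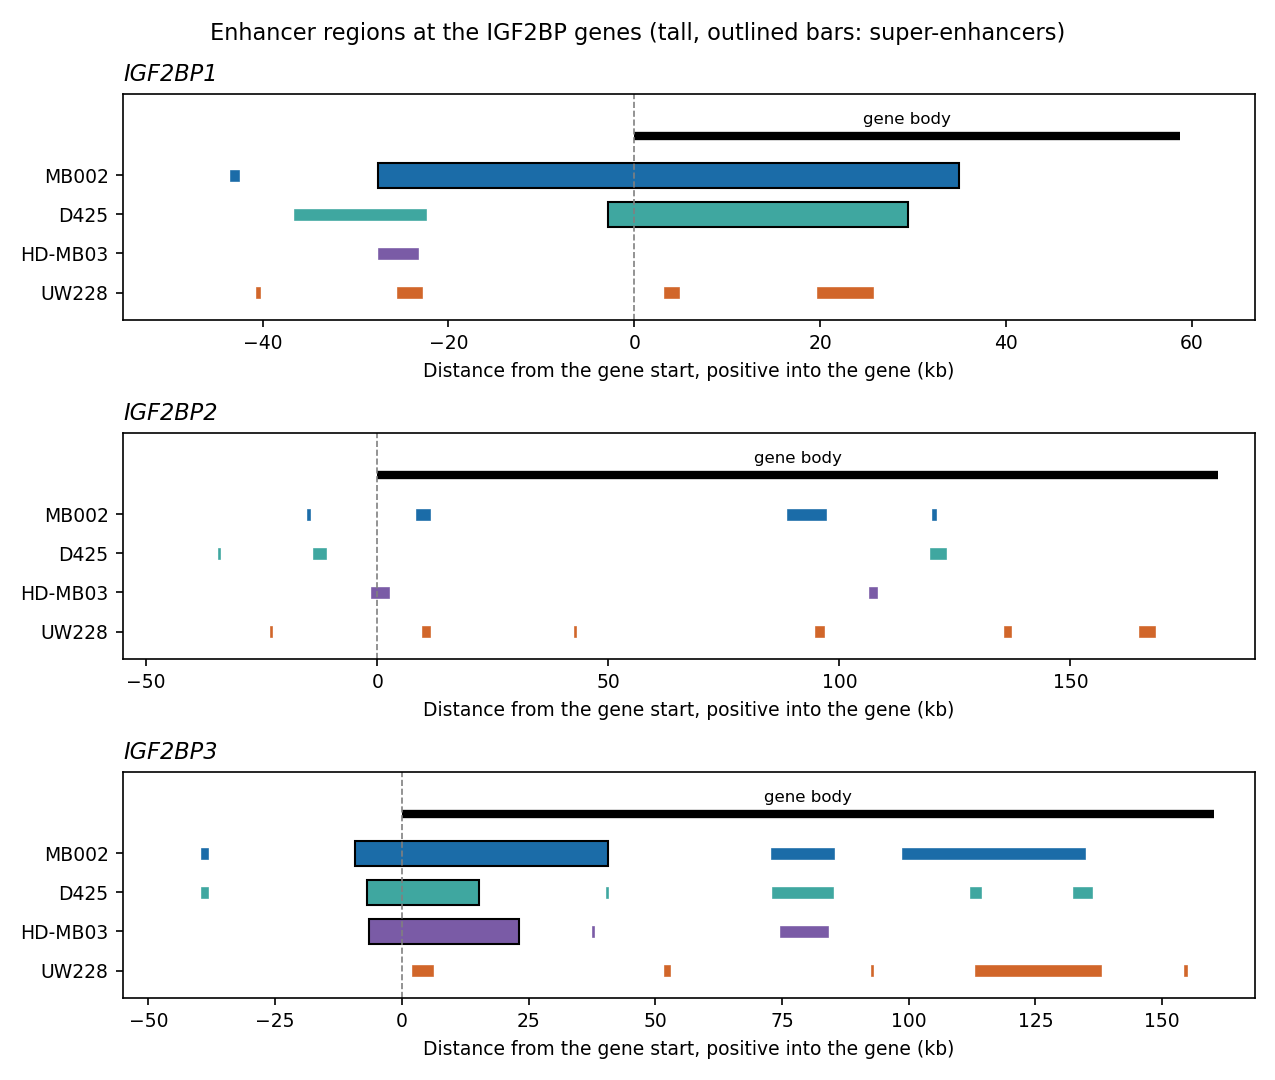
Enhancer regions of *IGF2BP1*, *IGF2BP2* and *IGF2BP3* in MB002, D425, HD-MB03 and UW228, by distance from the gene start in kb (positive into the gene), with the gene body as a black line. Tall outlined bars are the 5 SEs, all of which span the start of their gene, and low bars are TEs.

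*IGF2BP3* was the only one of the 3 genes with a SE over its start in every G3-MB line. In MB002 the SE ran from 23429860 to 23479729 on chromosome 7, joined 14 peaks over 49.9 kb, and ranked 198 with a signal of 44264. In D425 it ran from 23455335 to 23477328, joined 8 peaks over 22.0 kb, and ranked 218 with a signal of 36915. In HD-MB03 it ran from 23447311 to 23477039, joined 4 peaks over 29.7 kb, and ranked 47 with a signal of 51212. The 3 SEs overlapped in a stretch of 21.7 kb, from 6.55 kb upstream to 15.2 kb downstream of the start, with exons 1 and 2, intron 1 and part of intron 2 of the 15-exon transcript. Per base pair the HD-MB03 and D425 SEs were close, at 1.72 and 1.68, and the MB002 SE was at 0.888. The MB002 SE was thus the longest and the least dense of the 3.

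In UW228 the same stretch held 1 TE of 4.07 kb, from 23464437 to 23468501, which began 1.99 kb inside the gene, ranked 8650 and had a signal of 2456 or 0.604 per base pair. It was inside all 3 SEs of the G3-MB lines. The highest *IGF2BP3* region of UW228 lay elsewhere, from 23332503 to 23357329, 113 kb into the gene, with 7 peaks, rank 2357, a signal of 11378 and a relative input density of 1.72. It covered exons 6 to 10, held 74.6% of the *IGF2BP3* signal of UW228 and lay 33.8 kb from the start of *MALSU1*, a mitochondrial ribosome assembly factor. By summed signal, the highest *IGF2BP3* region was thus at the start of the gene in the G3-MB lines and deep in the gene body in UW228. Per base pair the UW228 gene-body region had 0.458, less than the TE near the start. After division by relative input density, the *IGF2BP3* best rank in UW228 moved from 2357 to 4443. The study left peaks within 2.5 kb of promoters out of its enhancers, so UW228 signal at the start itself may be missing here.

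The TEs of *IGF2BP3* also differed in place. A region in intron 3, near 73 to 85 kb into the gene, was found in each G3-MB line, at ranks 1436, 2060 and 2974 (MB002, D425 and HD-MB03). UW228 had no region that overlapped it. MB002 and D425 shared a small region 38.2 kb upstream of the start, of rank 10647 in MB002 and 13589 in D425. MB002 also had a long sparse region of 36.2 kb over exons 4 to 10, of rank 3299 and 0.188 per base pair. It overlapped the gene-body region of UW228, and 2 shorter TEs of D425 overlapped it as well. Of the 18 *IGF2BP3* regions 15 overlapped a region of another line by at least 1 bp, as did 58.2% of all 88550 regions of the 4 lines.

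Summed over its regions, the *IGF2BP3* share was 695 ppm for MB002, 643 ppm for D425, 1135 ppm for HD-MB03 and 145 ppm for UW228. UW228 was the lowest and HD-MB03 the highest, and the 3 G3-MB values did not overlap that of UW228. The G3-MB mean was 825 ± 270 ppm (SD, n = 3), 5.67 times the UW228 value, and the difference of 679 ppm was larger than the SD between the G3-MB lines. In a two-sided exact permutation test of the 3 lines against UW228, p was 0.25, which is the smallest value that 4 splits allow, so this design cannot pass 0.05. Among the 11650 coding genes with signal in UW228 and in a G3-MB line, 78.5% had a lower ratio of G3-MB mean to UW228 than *IGF2BP3*, the median ratio was 1.26, and the highest 10% began at 16.8. The place of *IGF2BP3* among these genes depended on the gene-body region of UW228. With regions within 50 kb of the start alone, its share was 481 ppm for MB002, 472 ppm for D425, 1055 ppm for HD-MB03 and 23.4 ppm for UW228, with p = 0.5 in the exact permutation test. The ratio was then 28.6, above that of 92.9% of 10770 genes, whose highest 10% began at 17.5 on the same rule. Relative input density of its SE was 1.01 for MB002, 1.47 for D425 and 1.35 for HD-MB03.

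**Figure D2:**
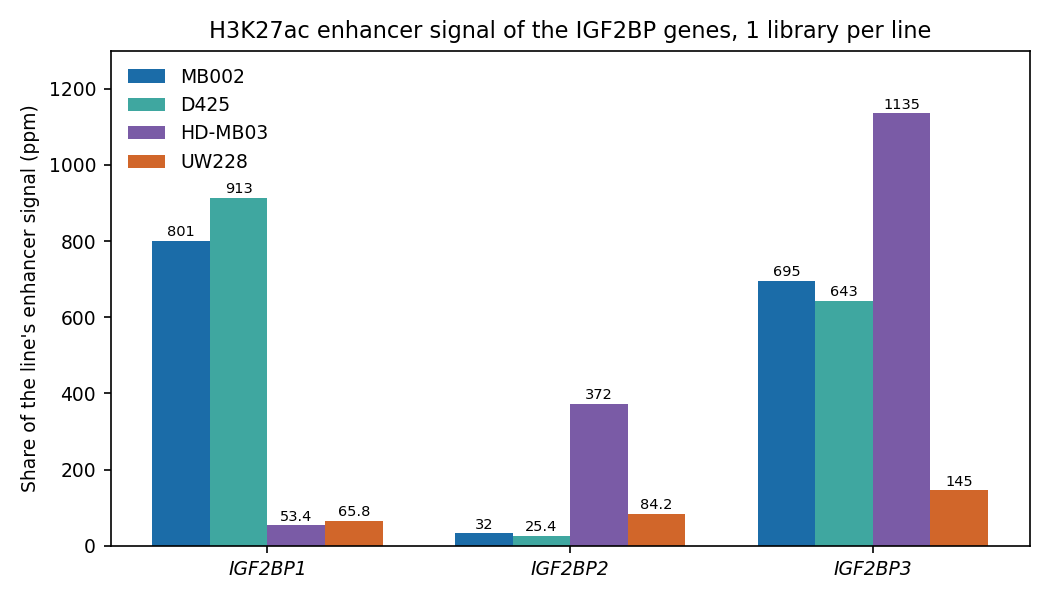
Share of the enhancer signal of each line held by the regions of each gene, in ppm, with 1 bar per line from 1 library pair, so without error bars. *IGF2BP3* is higher in all 3 G3-MB lines (643 to 1135 ppm) than in UW228 (145 ppm), *IGF2BP1* is high in MB002 and D425 alone, and *IGF2BP2* is highest in HD-MB03. Shares are to be compared between lines within a gene.

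*IGF2BP1* divided the G3-MB lines. MB002 had a SE of 62.5 kb from 48969811 to 49032278 on chromosome 17, with 14 peaks, rank 61 and a signal of 75135. D425 had a SE of 32.2 kb from 48994581 to 49026816, with 11 peaks, rank 81 and a signal of 57398. The D425 SE lay wholly inside the MB002 SE and reached from 2.80 kb upstream to 29.4 kb downstream of the start, over exons 1 to 4 of 15. These were the highest regions of any of the 3 genes in both lines, and their density was 1.20 per base pair in MB002 and 1.78 in D425.

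HD-MB03 had a single *IGF2BP1* region, from 48969767 to 48974060, 23.3 kb upstream of the start, with rank 4013 and a signal of 2596. It had none in the gene body. UW228 had 4 small regions, of which the highest, at rank 6776, lay 22.9 kb upstream and 2 of ranks 9745 and 12368 lay in intron 2. The upstream element was the part found in every line. It was inside the SE in MB002, and in D425 it was a TE of its own, of 14.2 kb and rank 1023. *GIP*, which encodes an incretin hormone of the gut, started 1.17 kb from it in HD-MB03 and 3.22 kb in UW228, and *SNF8*, an ESCRT-II subunit, started 24.9 kb from it in HD-MB03. Both genes were also within 50 kb of the SEs of MB002 and D425, and position alone does not say which gene a region acts on.

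The *IGF2BP1* share was 801 ppm for MB002, 913 ppm for D425, 53.4 ppm for HD-MB03 and 65.8 ppm for UW228. HD-MB03 was below UW228, so the groups overlapped. The G3-MB mean was 589 ± 467 ppm (SD, n = 3), and the difference of 523 ppm from UW228 was little more than the SD between the G3-MB lines. The same two-sided exact permutation test gave p = 0.75 for *IGF2BP1*. Without HD-MB03 the difference was 791 ppm. The ratio of 8.95 was above that of 84.2% of the 11650 genes and rested on MB002 and D425. Input was raised here in D425, with a relative input density of 2.13 over the SE, 2.29 over the TE upstream of it and a median of 2.24 over the 19 regions within 1 Mb. In MB002 it was 1.36 over the SE with a median of 1.47 over 45 regions, and in HD-MB03 1.02. After division of each signal by its relative input density, the *IGF2BP1* best rank moved from 81 to 375 in D425 and from 61 to 84 in MB002, and its difference from UW228 from 523 to 303 ppm. Both regions were still above the cutoff redrawn on the divided signal, which called 998 SEs in D425 and 964 in MB002.

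*IGF2BP2* had its highest region in HD-MB03. A single peak of 4.03 kb ran from 185822464 to 185826497 on chromosome 3, across the start, exons 1 and 2 and the promoter shown above, with rank 601 and a signal of 16644. This placed it in the top 3.93% of the regions of HD-MB03 but below its lowest SE, whose signal was 23019. At 4.13 per base pair it was the densest of the 42 regions, and its relative input density was 0.892. By mean signal per base pair it ranked 125, inside the number of SEs of the line. The other 3 lines had no region over the *IGF2BP2* start.

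The absence of a region over a start is not a measure of absent H3K27Ac, because the study left peaks within 2.5 kb of promoters out of its enhancers. The *IGF2BP2* peak of HD-MB03 reached 78 bp beyond that distance on the downstream side. By that rule a peak that ended within 2.5 kb on both sides would have been left out. Regions that lay wholly within 2.5 kb of a coding gene start were still present (269, 306, 231 and 173 for MB002, D425, HD-MB03 and UW228). The promoter set that the study used was not compared here, so these counts hold for GENCODE 44 starts.

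Away from the start, *IGF2BP2* had low-ranked TEs. Its best rank was 9085 in MB002, in intron 2 at 8.39 kb into the gene, 11365 in D425, 11.0 kb upstream, and 8538 in UW228, 165 kb into the gene over exons 11 and 12. UW228 had the most regions, 6, and the other lines 2 to 4. Of the 15 regions 9 were found in 1 line only and none in all 4 lines. Of all regions, 41.8% were found in 1 line only and 10.6% in all 4 lines. MB002 and UW228 shared a region in intron 2 near 9 to 11 kb, of rank 9085 and 9712, and another near 89 to 97 kb, of rank 14125 and 9954. The MB002 region of rank 14125 was the sparsest of all 42, at 0.0876 per base pair.

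The *IGF2BP2* share was 32.0 ppm for MB002, 25.4 ppm for D425, 372 ppm for HD-MB03 and 84.2 ppm for UW228. HD-MB03 alone was above UW228. The G3-MB mean was 143 ± 198 ppm (SD, n = 3), and its difference of 59.0 ppm from UW228 was smaller than the SD, with p = 1 in the two-sided exact permutation test. Without HD-MB03 the difference reversed to -55.5 ppm. It was 105 ppm with regions within 50 kb of the start alone, where the ratio was 5.96 and above that of 78.6% of genes on that rule. It was 101 ppm after division by relative input density and 38.1 ppm without input subtraction. As summed signal not divided by the total of the line, the difference reversed to -1103 in signal units. The ratio of 1.70 was higher than that of 56.3% of the 11650 genes, near the middle, with gene-body regions included. The 1 region over the start made 92.0% of the HD-MB03 value.

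**Figure D3:**
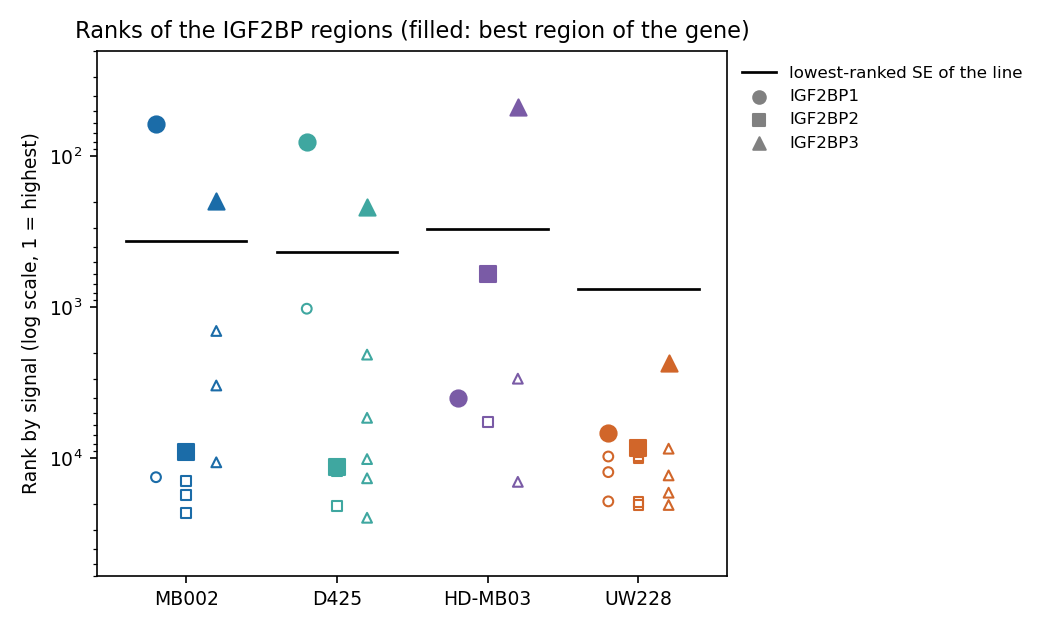
Rank by signal of each of the 42 regions (log axis, 1 at the top) in each line, with a filled symbol for the best region of a gene, open symbols for the others and a black line at the last SE of the line. *IGF2BP3* stands above the line in MB002, D425 and HD-MB03, *IGF2BP1* in MB002 and D425, and no gene in UW228.

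The 3 genes thus differed in which lines carried their highest signal. In MB002 and D425 the order by best rank was *IGF2BP1* (61 and 81), *IGF2BP3* (198 and 218) and *IGF2BP2* (9085 and 11365). In HD-MB03 it was *IGF2BP3* (47), *IGF2BP2* (601) and *IGF2BP1* (4013). In UW228 it was *IGF2BP3* (2357), *IGF2BP1* (6776) and *IGF2BP2* (8538). The first place of *IGF2BP3* in UW228 came from the region 113 kb into the gene, and with regions within 50 kb of the start alone its best rank was 8650, behind *IGF2BP1* (6776) and ahead of *IGF2BP2* (9712). *IGF2BP3* ranked above *IGF2BP2* in all 4 lines, and *IGF2BP1* fell from the first place in MB002 and D425 to the last in HD-MB03. With 1 library per line, the differences between neighbors in these orders could not be tested. Per base pair over all regions of a gene, the signal of *IGF2BP1* was 1.20 for MB002, 1.57 for D425, 0.605 for HD-MB03 and 0.640 for UW228, that of *IGF2BP2* was 0.240, 0.304, 3.07 and 0.980, and that of *IGF2BP3* was 0.660, 1.23, 1.40 and 0.490. On this scale, *IGF2BP2* was the lowest gene in MB002 and D425 and the highest in HD-MB03 and UW228.

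**Figure D4:**
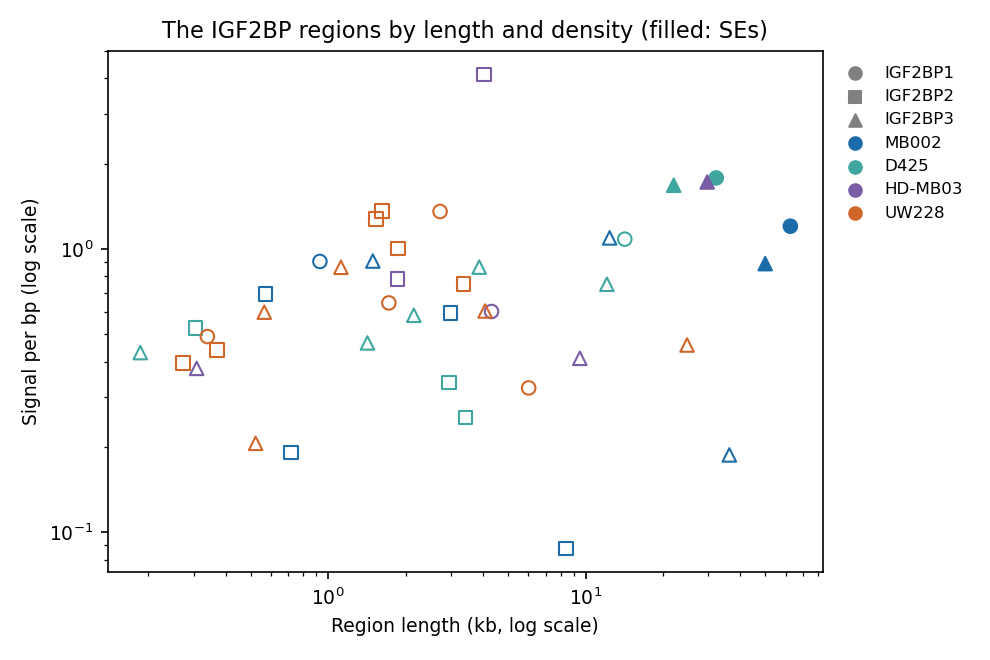
Length in kb and signal per base pair of the 42 regions on log axes, with the symbol for the gene, the color for the line and filled symbols for SEs. The 5 SEs are 22.0 to 62.5 kb long at 0.888 to 1.78 per base pair, whereas the densest region, of *IGF2BP2* in HD-MB03 at 4.13, is 4.03 kb long.

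SE calls rest on summed signal, which grows with the length of a region. How many of all SEs keep the call by mean signal per base pair was not computed. A lost call is therefore not shown to be particular to these genes. By mean signal per base pair, with the number of SEs of each line kept, the best ranks of the 5 pairs were 805 to 2910 and none was among the SEs, and the *IGF2BP2* region of HD-MB03 was the only one that was. Under the other 9 rules for the call, the same number of pairs, 5 of 12, had a SE. Rules that changed only the window, gene body or transcript starts could not remove one, because all 5 SEs span their gene start. Beyond the window, the nearest region to *IGF2BP3* in MB002 lay 55.1 kb from the start, at rank 11695, and the farthest upstream region inside it lay 38.2 kb away, at rank 10647. The nearest region outside the window was no SE for any gene or line.

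Among all coding genes, *IGF2BP3* stood high in every G3-MB line, and the plot of shares shows its place. The study had picked this gene partly by its SEs in data that include these lines, so a high place was likely beforehand. By share, *IGF2BP3* was above 98.5% of the coding genes for MB002, 98.1% for D425, 99.3% for HD-MB03 and 86.8% for UW228. *IGF2BP1* was above 98.9% and 99.2% in MB002 and D425, but above 67.9% in HD-MB03 and 75.2% in UW228. *IGF2BP2* was above 61.7%, 55.0%, 91.4% and 78.7% in MB002, D425, HD-MB03 and UW228. Longer genes collect more regions by the rule, and lengths were 58761 bp for *IGF2BP1*, 181913 bp for *IGF2BP2* and 160283 bp for *IGF2BP3*.

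**Figure D5:**
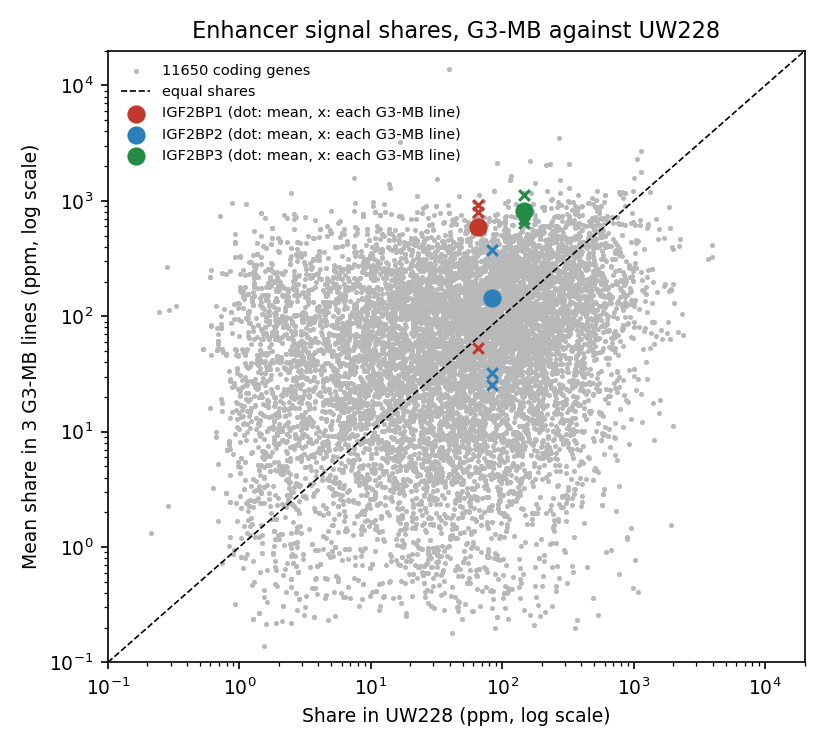
Mean share of the enhancer signal in 3 G3-MB lines against the share in UW228, in ppm on log axes, for 11650 coding genes in grey, with the dashed line at equal shares. Colored dots are the means of the members and crosses their 3 G3-MB lines. The 3 crosses of *IGF2BP3* lie above the line, while *IGF2BP1* has 1 cross below it and *IGF2BP2* has 2.

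The coding genes with best ranks most like those of each member were sought over the 4 lines, by the distance of log10 ranks and without genes that shared a region with it. For *IGF2BP3* these were *CHD2*, a chromatin remodeler, at ranks 290, 195, 57 and 2162 in MB002, D425, HD-MB03 and UW228 (distance 0.196), *FAM174B* (0.326) and *UQCRHL* (0.423). *CHD2* and *FAM174B* had the same best ranks in the G3-MB lines. For *IGF2BP1* they were *GAB2*, a signaling adaptor, at ranks 76, 97, 6412 and 5005 (0.272), and *EBP*, a sterol isomerase, and ENSG00000286268 with the same ranks of 107, 102, 3248 and 4606 (0.326). For *IGF2BP2* they were *CSDC2*, at ranks 8329, 13148, 547 and 11139, and *STYK1* and *YBX3*, both at ranks 11496, 10810, 531 and 10312, all at a distance of 0.143. Likeness of 4 ranks is a description and has no test.

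Other genes of the IGF2BP pathways were read by the same rule from 3 lists of 37 genes. In all, MB002 had a SE at 1 of them, D425 at 2, HD-MB03 at 4 and UW228 at 2, beside the shares of coding genes given above. The median share of the 37 genes was 25.3 ppm for MB002, 30.4 ppm for D425, 10.7 ppm for HD-MB03 and 18.2 ppm for UW228, against 13.1, 17.7, 7.79 and 7.38 ppm over all coding genes. Of the 18 genes of the m6A machinery, which writes, removes or reads the mark that the IGF2BP proteins bind, MB002 had a SE at 0, D425 at 1, HD-MB03 at 2 and UW228 at 1. *METTL16*, a methyltransferase, had the SE in D425 (rank 211) and one in HD-MB03 (rank 33), and ranked 1021 in MB002 and 3360 in UW228. Both SEs overlapped its gene body but lay 52.8 and 75.3 kb from its start, and they were assigned to 2 and 4 coding genes. *HNRNPA2B1*, a reader, had a SE over its start in HD-MB03 (rank 130), assigned to 3 coding genes. *WTAP*, a subunit of the writer complex, had a SE in UW228 (rank 691). The *WTAP* SE lay 6.02 kb from the gene start, outside the gene body, and was assigned to 3 coding genes. *METTL3* and *METTL14*, the catalytic core of the writer, had TEs at most.

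Of the 11 genes of the oncofetal LIN28, HMGA and IGF list, 1 had a SE in each line. *LIN28A*, which blocks the maturation of let-7, had SEs in MB002 and D425, at best ranks of 199 and 317, and TEs in HD-MB03 and UW228, at best ranks of 2500 and 5421. *LIN28A* thus had a SE in at least 2 G3-MB lines and none in UW228, as did 1.55% of coding genes. The 2 lines were those of *IGF2BP1*, and the share of genes with exactly these lines was not computed. *LIN28B* had no SE, with best ranks of 1131 in MB002, 2741 in D425 and 14825 in UW228 and no region in HD-MB03. The SE of rank 199 in MB002 lay 49.0 kb from the *LIN28A* start, just inside the window, and was assigned to 3 coding genes. A further SE of rank 217 in MB002 covered the start and was assigned to 5 coding genes. The D425 SE lay 45.6 kb away and was assigned to 6 coding genes. *IGF1R*, the receptor of IGF1 and IGF2, had its SE in UW228 (rank 224), in the gene body 204 kb from the start, and *IRS1*, the adaptor below that receptor, in HD-MB03 (rank 122). The *IRS1* SE was assigned to 2 coding genes. It had a relative input density of 4.99 and a median of 4.74 over regions within 1 Mb, and the part of input in its call was not tested. *HMGA2* had TEs with best ranks of 819, 2095, 11661 and 2575 in MB002, D425, HD-MB03 and UW228, and *IGF2* had a region in D425 alone, of rank 11847. Among 8 partner RNA-binding proteins, *HNRNPU* had a SE over its start in HD-MB03 (rank 120), assigned to 2 coding genes. The other 7 had no SE in any line.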

How the data were processed

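Alignment by the authors was to GRCh38 with Bowtie 2 (2.3.0) and SAMtools (1.9). They removed multi-mapped and duplicate reads, called peaks over input with MACS2 (2.2.6) at a q value of 0.05, and stitched and ranked them with ROSE. Versions are those of the submitters' processing notes. The deposited signal values, 1 H3K27Ac and 1 input value per region, are reads per base pair, scaled to mapped reads, times region length, with input not subtracted. Ranks and SE calls were used as deposited. The headers of all 4 lines name a stitching distance of 12 kb, slightly less than the distance in the study's methods. Depth is unknown from signal values, so no counting error was given.

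The scripts ran in Python 3.11.15 with numpy 2.4.6, pandas 2.3.3 and matplotlib 3.10.9. Input was subtracted and values below 0 set to 0. Regions were assigned to the protein-coding genes of GENCODE 44, which differs from a curated RefSeq set. No region passed a chromosome end of the genome used. The assignment and the SE cutoff were tested on simulated data. The share of each gene was compared by an exact permutation test over lines, 3 against 1, in 3 tests. All else is description. Named genes were the members, genes sharing their best region, list genes with a SE and the 3 genes nearest in best ranks. *METTL3*, *METTL14*, *LIN28B*, *HMGA2* and *IGF2* were added after their values were seen. The members and lists were chosen with earlier results of these data known. Alternatives were no input subtraction, division by relative input density, windows of 25 and 100 kb, gene body or start window alone, every transcript start, undivided signal, a total without regions of relative input density of 5 or more, the top 500 regions, a recomputed cutoff, mean signal per base pair and each G3-MB line left out. RNA-seq and tissue data were not analysed here.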

Additional observations from a re-analysis of the deposited data

How the results depend on the processing

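No paired analysis was possible because the labels give no replicate numbers and UW228 has 1 library of each kind. The depth of the libraries is unknown. The difference in share between the G3-MB mean and UW228 kept its sign for *IGF2BP1* and *IGF2BP3* under all alternatives. Leaving out 1 G3-MB line at a time gave 361 to 791 ppm for *IGF2BP1*, -55.5 to 118 ppm for *IGF2BP2* and 524 to 770 ppm for *IGF2BP3*. The *IGF2BP2* value fell below 0 without HD-MB03, and as summed signal not divided by the total of the line, where it was -1103 in signal units. The number of pairs of gene and line with a SE was 5 under 9 alternatives and 1 when regions were ranked by mean signal per base pair. All 5 SEs span the start of their gene. Alternatives of window, gene body or transcript start could therefore not remove one, and they do not test these calls or their ranks. Of 119 best ranks computed under the alternatives, 113 kept their side of the SE call, 5 lost it and 1 gained it, all 6 by mean signal per base pair. Division by relative input density moved the *IGF2BP3* best rank in D425 from 218 to 434, past the 431 SEs deposited for that line but inside the 998 called on the divided signal. *IGF2BP1* had no region in HD-MB03 when the gene body alone was used. The count of regions that overlapped another line, 28 of 42, was also 28 when at least 50% of the shorter region had to overlap. The search for GTAATCCCA and the ratios of all genes with the start window alone were added after the data were seen.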

Other observations

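The study's 2 short hairpin RNA targets against *IGF2BP3* were located in GRCh38 by exact match, to show what part of the gene they address. Both read in the direction of the transcript, on the minus strand of chromosome 7, and lie in coding exons.
shIGF2BP3-1 chr7:23342163-23342183: gcacatttaattcctggatta
shIGF2BP3-2 chr7:23361557-23361577: gcagttgtaaatgtaacctat
The first is in exon 10 and the second in exon 5. The first matched the genome at 3 places and the second at 2. Outside *IGF2BP3* the first occurs in transcripts of ENSG00000213067 and ENSG00000235008 and the second in transcripts of ENSG00000235008. On chromosome 6 the first matched from 166701727 and the second, close by, from 166702462. The first also matched on chromosome 7 from 56597689. Whether these loci are copies of *IGF2BP3* was not examined. Neither site lies in a SE of *IGF2BP3* in any of the 4 lines. Knockdown was not measured in these values.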
